A study of Homo sapiens with 18 samples.

Results

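GAS5 and 9 other non-coding host genes of small nucleolar RNAs (snoRNAs) were followed in C4-2B prostate cancer cells treated with an Aurora kinase A inhibitor, a PARP inhibitor or both. The 10 genes, GAS5, SNHG1, SNHG3, SNHG5, SNHG6, SNHG7, SNHG8, SNHG12, SNHG15 and ZFAS1, were taken by name, as expressed long non-coding RNAs that carry snoRNAs in their introns, out of 26469 genes named in the tables. All 10 passed the limit on low counts (at least 10 counts in at least 3 libraries) at both times.

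The cells, C4-2B, are an established prostate cancer line of human origin, labelled wild type in every group, and all results come from this 1 line in culture. Poly(A) RNA was sequenced in 18 libraries, 3 in each of 6 groups. After 2 days, cells with DMSO vehicle (VEH) were compared with cells given 0.1 μM VIC-1911 (VIC), the AURKA inhibitor. After 7 days, the groups were VEH, 0.1 μM VIC-1911, 1 μM olaparib (OLA), the PARP inhibitor, and both drugs at these doses (COMBO). The labels number the 3 libraries of a group but do not say that they came from separate cultures, so the p-values measure the spread between these libraries, which may be technical.

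A snoRNA host gene is transcribed and spliced like other genes, and the snoRNAs are cut out of its introns and guide chemical modification of ribosomal RNA. What remains is the spliced host transcript, which is the RNA measured here. In GAS5 and several other hosts this transcript begins with a 5′ terminal oligopyrimidine (TOP) tract, a C followed by a run of C and T that it shares with ribosomal protein mRNAs and that places translation under control of the kinase complex mTORC1. GAS5 RNA holds only short open reading frames, is degraded by nonsense-mediated decay (NMD) when ribosomes translate it, and is known to build up in growth-arrested cells, which gave the gene its name, growth arrest specific 5.

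Total counts on genes were between 3245273 and 7184420 per library at 2 days and between 4967931 and 19684208 at 7 days. Reads on the 10 hosts made up between 0.0605% and 0.0855% of a library. All 7 luminal prostate markers stood at 22.6 FPKM or more in every library (FPKM is a fragment count divided by transcript length and by the number of mapped fragments). Of the markers of basal, stromal, immune and endothelial cells, KRT5, TP63, COL1A2, DCN, PTPRC, CD3E, PECAM1 and CDH5 were under 0.1 FPKM throughout, while COL1A1 and CD68 were at 1 FPKM or more. KRT14 (basal), PDGFRB (stromal) and VWF (endothelial) were neither under 0.1 FPKM throughout nor at 1 FPKM or more in every library. Summed over each list other than the immune one, a library held 0.0908 to 2.89 FPKM of basal, 1.36 to 2.48 of stromal and 0.173 to 0.754 of endothelial markers, whose part in the results was not tested. Of the 7 luminal markers, 4 fell and 1 rose with VIC at 7 days, and 5 fell and 1 rose with olaparib and likewise with COMBO. With VIC at 7 days KRT14 fell by 0.58 (adjusted p = 0.036) and PDGFRB rose by 0.73 (adjusted p = 0.0261) on the log2 scale. COL1A1 (-0.19) and VWF (-0.30) did not pass. KRT14, the 1 basal marker tested, rose with olaparib (0.58) and COMBO (0.80). VWF, the 1 endothelial marker tested, fell by 1.185 and 1.22. Of 2 stromal markers tested, 2 rose with olaparib and 1 with COMBO. Over all genes, 25.8%, 25.9% and 28.0% were called lower in these comparisons and 26.6%, 28.1% and 28.6% higher. The library names of VEH and VIC at 7 days form 1 run of numbers and those of OLA and COMBO another, so olaparib and whatever else separated the runs cannot be told apart in a comparison across them. VIC against VEH and COMBO against OLA each lie within a run, but a comparison of these changes with each other crosses the runs.

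The first bases of the hosts are shown because they tell which of these genes carry the TOP tract at an annotated start. For each gene the most frequent start among its GENCODE version 44 transcripts was taken (GRCh38, the most upstream of a tie), and the uninterrupted run of C and T from the first base is in capitals. SNHG6 is named only.
GAS5, chr1:173867960-173867989, minus strand: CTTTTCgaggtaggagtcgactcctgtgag
SNHG1, chr11:62855856-62855885, minus strand: CTCatttttctactgctcgtggtaagtggc
SNHG3, chr1:28505980-28506009, plus strand: agacattccaggacttccgggcacttcgta
SNHG5, chr6:85678719-85678748, minus strand: gctgcgcacttcggtcttttacgtcggcct
SNHG7, chr9:136728155-136728184, minus strand: CTCTgcgtgcgccggaggctgccgtggcgg
SNHG8, chr4:118278758-118278787, plus strand: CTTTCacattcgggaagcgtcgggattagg
SNHG12, chr1:28581844-28581873, minus strand: CCTTTCTCCCCgccgcattcccggtgtcga
SNHG15, chr7:44986639-44986668, minus strand: ggcgcagcgcgcggcgtcagtcttggctgg
ZFAS1, chr20:49278642-49278671, plus strand: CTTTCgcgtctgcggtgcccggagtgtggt

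A C at the first base followed by at least 4 further pyrimidines was present at this start in GAS5, SNHG8, SNHG12 and ZFAS1, which is 4 of 9 (44.4%). The search covered the first base of the transcript strand only. The same letters opened 52 of 79 ribosomal protein genes (65.8%), 2.75% of 18866 long non-coding RNA genes and 2.38% of 62664 genes of all kinds. When any annotated start of a gene was allowed, 7 of the 9 hosts (77.8%) had it, and SNHG7 and SNHG15 had it at none. The share was 91.1% in ribosomal protein genes, 16.3% in protein-coding genes, 5.92% in long non-coding RNA genes and 7.48% in all genes. A gene with more transcripts has more starts that can carry the tract, and the sets were not matched for this. SNHG1 had it in 1 of 80 transcripts and SNHG5 in 3 of 89. A gene's most frequent start in the annotation depends on how many transcript models were drawn there, so the letters describe the annotation and not the starts used in these cells. The start shown was that of 50 of 91 transcripts in GAS5, 61 of 89 in SNHG5 and 6 of 10 in SNHG7, but of a minority in the others, 25 of 80 in SNHG1, 5 of 15 in SNHG8, 4 of 19 in SNHG12, 2 of 14 in SNHG15 and 5 of 14 in ZFAS1. SNHG3 has 3 transcripts with 3 different starts, of which 1 has the tract, so its start is a tie and the count of 4 of 9 depends on how it was resolved.

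GAS5 was the most abundant of the 10 hosts in all 6 groups and SNHG7 the least. With vehicle at 7 days, GAS5 stood at 337 ± 12.02 FPKM (SD, n = 3), SNHG8 at 143 ± 10.1 and ZFAS1 at 112 ± 5.52. SNHG6 (54.5 ± 5.27), SNHG1 (54.0 ± 1.16) and SNHG5 (47.3 ± 9.01) followed. The libraries of SNHG6 and SNHG1 overlapped, as did those of SNHG1 and SNHG5, so these 3 have no order beyond their spread. SNHG15 (30.03 ± 2.11), SNHG3 (25.45 ± 1.401), SNHG12 (17.1 ± 1.43) and SNHG7 (7.88 ± 0.106) were each separate from the next. SNHG8 and ZFAS1 were also separate with olaparib at 7 days (100.9 ± 2.78 and 90.5 ± 7.87 FPKM). Their libraries overlapped with VIC at 7 days (88.9 ± 1.85 and 90.5 ± 1.85 FPKM) and with COMBO (104.0 ± 10.3 and 100.2 ± 8.33). At 2 days with vehicle GAS5 was at 231 ± 11.9 FPKM, SNHG8 at 107 ± 2.61, SNHG5 at 26.9 ± 1.06 and SNHG3 at 41.1 ± 2.24. The tables of the times were made separately. At 2 days the log2 ratio of VIC to vehicle in FPKM less that in counts scaled by library size was between -0.07 (SNHG12) and 0.05 (SNHG8). The FPKM values of 2 days thus do not follow from the deposited counts alone, and levels were not compared between times.

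**Figure D1:**
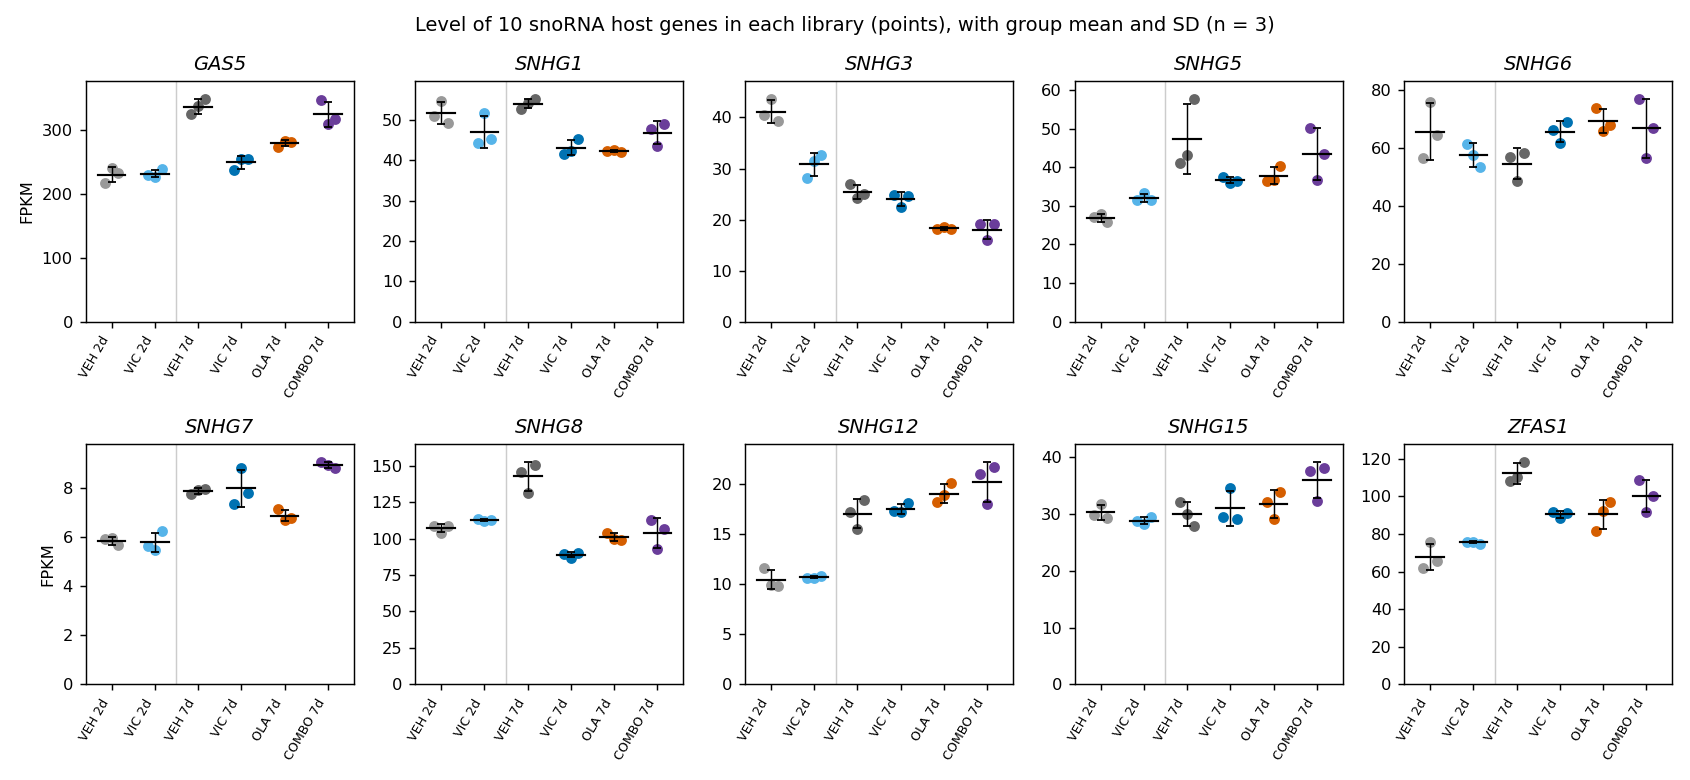
Level of each of the 10 host genes in FPKM (vertical axis, from 0) in every library, with 1 panel a gene and the 6 groups along the horizontal axis; points are libraries, the bar is the mean and the whisker the SD (n = 3). The 3 GAS5 points with VIC at 7 days lie between 238.5 and 255.7 FPKM, under all 3 vehicle points (325.1 to 349.2), while the COMBO points (310.4 to 347.4) overlap with vehicle.

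After 2 days of VIC-1911, SNHG3 was the 1 host that passed the test. Its levels were 40.4, 43.6 and 39.3 FPKM with vehicle and 28.2, 31.5 and 32.7 FPKM with VIC. All 3 VIC libraries lay under the vehicle libraries, and SNHG3, the host of the U17 snoRNAs SNORA73A and SNORA73B, fell to 0.761 of vehicle (log2 fold change -0.39 ± 0.06 SE, adjusted p = 2.61e-05). With 1 of 10 called, the hosts were near the background of this comparison, in which 14.7% of 12241 genes were called (7.50% higher, 7.19% lower).

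GAS5 did not pass the test at 2 days. It measured 217, 240.5 and 233.5 FPKM with vehicle and 231, 227.0 and 239 with VIC, with overlapping groups and a log2 fold change of 0.03 (95% interval -0.07 to 0.14, adjusted p = 0.730). SNHG5, the host of the box C/D snoRNAs SNORD50A and SNORD50B, measured 27.1, 27.9 and 25.8 FPKM with vehicle and 31.4, 33.2 and 31.5 with VIC. The groups did not overlap, but its log2 difference of 0.24 missed the threshold (adjusted p = 0.195) and passed it when limma was run on the FPKM values (adjusted p = 0.00946; range over 14 alternatives 0.00943 to 0.483). ZFAS1, the host of the SNORD12 family, differed by 0.14 (adjusted p = 0.175), and passed only without vehicle replicate 2 (0.23, adjusted p = 0.0206; range 0.0206 to 0.466). The other 6 hosts differed from vehicle by between -0.20 (SNHG6) and 0.13 (SNHG12), none past the threshold.

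After 7 days of VIC-1911, 5 of the 6 most abundant hosts were lower. GAS5, SNHG1, SNHG5, SNHG8 and ZFAS1 fell, SNHG6 rose, and SNHG3, SNHG7, SNHG12 and SNHG15 did not pass the test. The 6 called of 10 stand beside a background of 52.4% of 14409 genes, and the 5 that fell beside 25.8% called lower, with 26.6% called higher. The median log2 fold change of the 10 was -0.24, against -0.0053 over all genes tested. No host passed the test and the study's fold limit together in any comparison. That limit is 1.5-fold at 2 days, which 2.16% of genes passed, and 2-fold at 7 days, which 6.89% passed with VIC, 7.16% with olaparib and 8.54% with COMBO, and 0.382% in COMBO against OLA and 4.05% in COMBO against VIC.

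SNHG8, the host of the box H/ACA snoRNA SNORA24, had the largest fall of the 10. Its levels were 146, 131 and 151 FPKM with vehicle and 89.5, 86.8 and 90.3 with VIC, with no overlap. The ratio was 0.607 (log2 fold change -0.72 ± 0.06 SE, adjusted p = 6.04e-11), and the log2 fold change was between -0.80 and -0.67 over the 15 alternatives.

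GAS5 measured 325, 337 and 349 FPKM with vehicle and 238.5, 256 and 255 with VIC. Every VIC library was under every vehicle library, and the RNA fell to 0.719 of vehicle (log2 fold change -0.48 ± 0.05 SE, 95% interval -0.57 to -0.38, adjusted p = 1.22e-09). In bulk RNA, fewer cells with the transcript and less of it per cell cannot be told apart.

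SNHG1, which carries SNORD22 and SNORD25 to SNORD31, was at 52.8, 54.2 and 55.1 FPKM with vehicle and at 41.6, 42.3 and 45.3 with VIC. ZFAS1 was at 108.0, 110.4 and 118.5 FPKM with vehicle and at 91.7, 88.3 and 91.3 with VIC. Both had separate groups and fell to 0.776 (log2 fold change -0.37 ± 0.06 SE, adjusted p = 3.21e-06) and 0.783 of vehicle (-0.35 ± 0.06 SE, adjusted p = 9.37e-06). SNHG5 was at 41.2, 43.2 and 57.7 FPKM with vehicle and at 37.6, 35.97 and 36.5 with VIC. Vehicle replicate 3 was far above the other vehicle libraries, yet the groups did not overlap, and SNHG5 fell to 0.774 of vehicle (adjusted p = 0.00386). Without that library the fall was 0.26 on the log2 scale and still passed (highest adjusted p over 15 alternatives 0.0322).

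SNHG6, the host of SNORD87, was the 1 host called higher. It measured 56.9, 48.5 and 58.1 FPKM with vehicle and 66.0, 61.7 and 68.9 with VIC, separate but close, and rose to 1.18 times vehicle (log2 fold change 0.24 ± 0.09 SE, adjusted p = 0.0245). The call rested on single libraries. It was lost without vehicle replicate 2 (0.13, adjusted p = 0.277), VIC replicate 1 (adjusted p = 0.0539) or VIC replicate 3 (adjusted p = 0.116), within a range of 0.00392 to 0.277 over 15 alternatives.

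The remaining hosts did not pass. SNHG3 was at 27.0, 24.3 and 25.0 FPKM with vehicle and 24.8, 22.4 and 24.7 with VIC, overlapping, with a log2 difference of -0.13 (adjusted p = 0.0810). It passed in 5 of 15 alternatives, among them the fit without vehicle replicate 2 (-0.19, adjusted p = 0.0320; range 0.0320 to 0.329). SNHG7, SNHG12 and SNHG15 had log2 differences of -0.02 (95% interval -0.18 to 0.14), 0.02 (-0.18 to 0.22) and -0.01 (-0.19 to 0.16).

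The change with VIC-1911 differed between 7 and 2 days for 7 hosts, tested as the difference of the log2 fold changes in a joint fit of 13832 genes, of which 28.8% were called (14.6% higher, 14.2% lower). It was lower at 7 days for SNHG8 (difference -0.77 ± 0.09 SE, adjusted p = 6.20e-10), GAS5 (-0.53 ± 0.07 SE, adjusted p = 8.15e-08), ZFAS1 (-0.50 ± 0.09 SE, adjusted p = 6.78e-06), SNHG5 (-0.62 ± 0.16 SE, adjusted p = 0.00252) and SNHG1 (-0.27 ± 0.09 SE, adjusted p = 0.0274). It was higher at 7 days for SNHG6 (0.42, adjusted p = 0.00968) and SNHG3 (0.25, adjusted p = 0.0311). The first 4 passed in all 20 alternatives. The difference of SNHG1 passed in 10 of 20 (range of adjusted p 0.00981 to 0.133) and was lost without replicates 1 or 3 of vehicle or 2 of VIC at 2 days, or replicates 2 of vehicle or 1 or 2 of VIC at 7 days. It was also lost with DESeq2 (adjusted p = 0.0739), with limma on FPKM values (0.104 and 0.101) and without scaling (0.0786). That of SNHG3 passed in 13 of 20 (range 0.004 to 0.140) and was lost without replicates 2 of vehicle or 1 or 2 of VIC at 2 days, or replicates 3 of vehicle or 1 or 3 of VIC at 7 days, and with DESeq2 (adjusted p = 0.0512). SNHG6 lost it without 2-day vehicle replicate 2 (0.31, adjusted p = 0.105) or 2-day VIC replicate 3 (0.36, adjusted p = 0.0508), in a range of 0.00215 to 0.105.

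With olaparib alone at 7 days, SNHG3 and SNHG7 were lower beside the 5 hosts that fell with VIC. The comparison shares its 3 vehicle libraries with the comparisons of VIC and COMBO. Of the 10 hosts, 7 fell and SNHG6 rose, and the 8 called (80.0%) stand beside 54.0% of all genes (25.9% lower, 28.1% higher). The median log2 fold change was -0.28, against 0.01 over all genes.

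SNHG3, which had missed the threshold with VIC at 7 days, measured with olaparib 18.1, 18.5 and 18.2 FPKM against 27.0, 24.3 and 25.0 with vehicle. The groups were far apart, and it fell to 0.7095 of vehicle (log2 fold change -0.50 ± 0.07 SE, adjusted p = 2.26e-07). SNHG8 was at 104.1, 99.8 and 98.9 FPKM, also under all vehicle libraries, and fell to 0.699 (-0.52 ± 0.06 SE, adjusted p = 3.81e-08). SNHG1 was at 42.3, 42.6 and 42.1 FPKM and fell to 0.775.

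GAS5 was at 274, 283 and 282 FPKM with olaparib, between VIC and vehicle with no overlap with either, and fell to 0.822 of vehicle (log2 fold change -0.28 ± 0.05 SE, adjusted p = 1.05e-05). ZFAS1, at 81.8, 92.3 and 97.3 FPKM, fell to 0.809 (adjusted p = 6.68e-05). These 5 falls held in all 15 alternatives.

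SNHG5 (36.4, 36.6 and 40.4 FPKM with olaparib) and SNHG7 (7.13, 6.68 and 6.79 against 7.76, 7.90 and 7.96 with vehicle) were lower with less margin. SNHG5 fell by 0.28 on the log2 scale (adjusted p = 0.0230), which was lost without vehicle replicate 3 (-0.18, adjusted p = 0.135) or OLA replicate 2 (0.101), in a range of 0.00475 to 0.135. SNHG7, the host of SNORA17A and SNORA17B, fell by 0.23 (adjusted p = 0.0160) and lost the call without OLA replicate 2 (0.0723) or 3 (0.0508), in a range of 0.00952 to 0.0723. SNHG6 was at 73.8, 65.8 and 67.8 FPKM, above all vehicle libraries, and rose to 1.25 times vehicle (adjusted p = 0.00293), though not without vehicle replicate 2 (0.22 on the log2 scale, adjusted p = 0.0632, the highest over 15 alternatives; lowest 6.72e-05). SNHG12 (0.18, 95% interval -0.02 to 0.38) and SNHG15 (0.05, -0.13 to 0.22) did not pass. Without scaling beyond library size, the olaparib calls of SNHG5 (adjusted p = 0.0522) and SNHG7 (0.0504) were lost and SNHG12 passed (0.22, adjusted p = 0.0466).

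With both drugs, GAS5 did not pass the test against vehicle. It measured 347, 310.4 and 318 FPKM with COMBO against 325, 337 and 349 with vehicle, overlapping, with a log2 fold change of -0.05 (95% interval -0.15 to 0.04, adjusted p = 0.351). Only without COMBO replicate 1 was it called lower (-0.11, adjusted p = 0.0469; range 0.0469 to 0.990). SNHG5, at 50.1, 36.8 and 43.4 FPKM, also overlapped with vehicle (-0.07, 95% interval -0.27 to 0.14, adjusted p = 0.587).

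Of the 10 hosts, 4 were called lower and 4 higher with COMBO, 80.0% against a background of 56.6% (28.0% lower, 28.6% higher). SNHG3 was at 19.1, 15.95 and 19.2 FPKM and fell to 0.712 of vehicle (adjusted p = 1.44e-07). SNHG8 was at 112.6, 92.6 and 106.7 FPKM and fell to 0.735 (adjusted p = 2.89e-07). SNHG1 was at 47.8, 43.5 and 48.9 FPKM and fell to 0.867 (adjusted p = 0.00232). These 3 genes were under all vehicle libraries, and they passed in all 15 alternatives. ZFAS1, at 108.5, 91.9 and 100.3 FPKM, overlapped with vehicle and fell to 0.896 (adjusted p = 0.0211), a call lost without COMBO replicate 2 (-0.10, adjusted p = 0.140) or vehicle replicate 3 (0.0735), in a range of 0.00141 to 0.140. It was also lost without scaling beyond library size (-0.11, adjusted p = 0.111) and with limma on FPKM values (adjusted p = 0.0541 and 0.0551).

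The hosts called higher with COMBO were SNHG6 (log2 fold change 0.32, adjusted p = 0.00255), SNHG12 (0.28, adjusted p = 0.0124), SNHG15 (0.25, adjusted p = 0.00965) and SNHG7 (0.18, adjusted p = 0.0387). SNHG12, the host of SNORD99, SNORA61, SNORA44 and SNORA16A, was at 21.02, 17.98 and 21.8 FPKM against 17.2, 15.6 and 18.4 with vehicle, overlapping. SNHG15, the host of SNORA9, was at 37.6, 32.4 and 38.2 FPKM against 32.2, 29.96 and 27.95, with COMBO replicate 2 just above the highest vehicle library. SNHG7 was at 9.07, 8.94 and 8.79 FPKM against 7.76, 7.90 and 7.96 and did not overlap.

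None of these 4 held in every alternative. SNHG6 was lost without vehicle replicate 2 (0.21, adjusted p = 0.0606) or COMBO replicate 1 (log2 fold change 0.19, adjusted p = 0.0626), in a range of 6.77e-05 to 0.0626. SNHG12 was lost without vehicle replicate 2 (0.132), COMBO replicate 1 (0.0519) or COMBO replicate 3 (0.0772), in a range of 0.00272 to 0.132. SNHG15 was lost without COMBO replicate 3 (0.0601; range 0.00181 to 0.0601), and SNHG7 when any of the 6 libraries was left out (range 0.00885 to 0.136). The call of SNHG7 was also lost with DESeq2 (adjusted p = 0.0945) and with no filter on counts (0.0763). The count of 8 called hosts went down to 5 without vehicle replicate 2 or COMBO replicate 3.

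**Figure D2:**
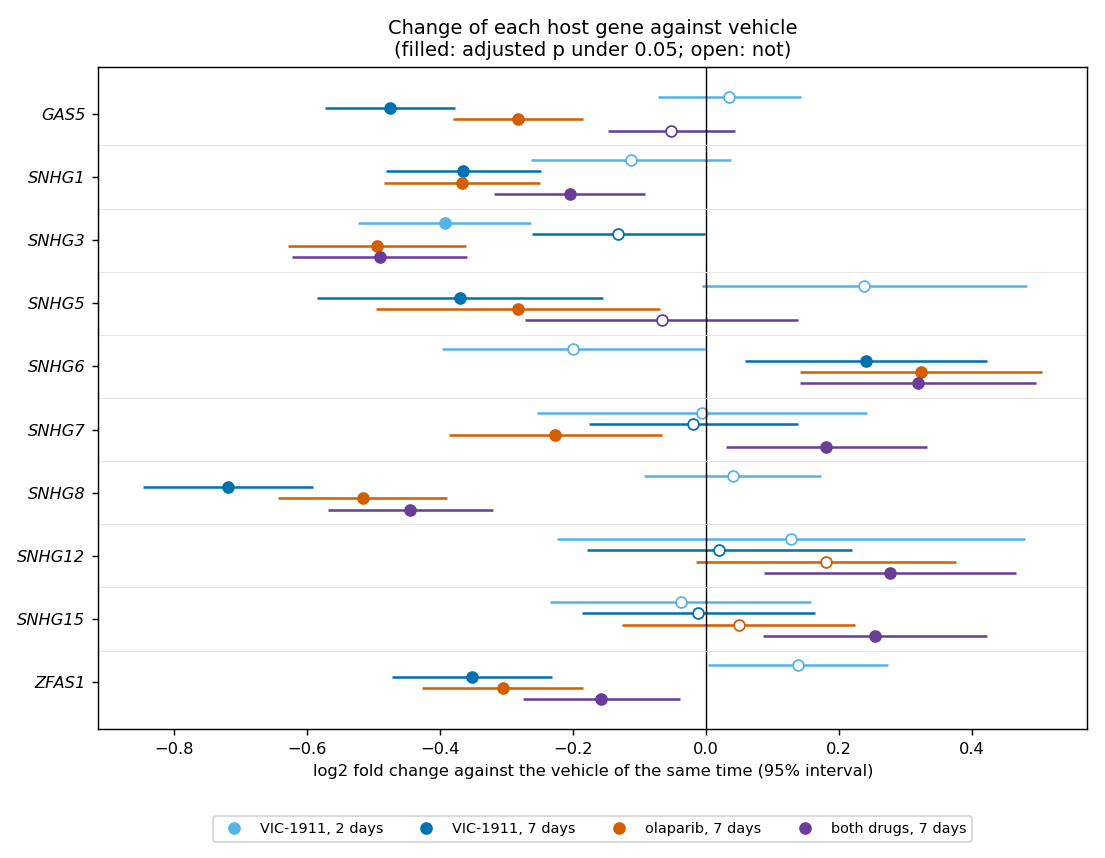
Log2 fold change of each host gene (horizontal axis) against the vehicle of the same time, with its 95% interval, for VIC-1911 at 2 and 7 days, olaparib at 7 days and both drugs at 7 days; filled points passed an adjusted p of 0.05. For GAS5 the points are 0.03 at 2 days, then -0.48 with VIC, -0.28 with olaparib and -0.05 with both; for SNHG8 all 3 points of 7 days lie under 0, from -0.72 to -0.44.

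Adding VIC-1911 to olaparib gave no host called lower. COMBO against OLA called GAS5 higher (0.23 ± 0.05 SE on the log2 scale, adjusted p = 0.00131) and SNHG7 higher (0.41 ± 0.08 SE, adjusted p = 0.000445), 2 of 10 (20.0%) beside a background of 11.5% (4.55% higher, 6.95% lower). In both genes all 3 COMBO libraries lay over the 3 OLA libraries, and both passed in all 15 alternatives. SNHG1 did not overlap between the groups either, but its difference of 0.16 missed the threshold (adjusted p = 0.0621), and passed it with upper-quartile scaling (0.0416) or the limit on FPKM (0.0424). Without COMBO replicate 2 the count was 6, with SNHG1 (adjusted p = 0.0143), ZFAS1 (0.0168), SNHG15 (0.0268) and SNHG5 (0.0343) added, the lowest values over their alternatives, whose highest were 0.269, 0.425, 0.465 and 0.647. SNHG3 (0.0041, 95% interval -0.13 to 0.14) and SNHG6 (-0.01, -0.18 to 0.17) did not pass.

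Whether the change with VIC-1911 differed with olaparib present was tested as an interaction, COMBO against OLA less VIC against VEH. It was called above 0 in 6 of 10 hosts and below 0 in none, against a background of 44.0% of 14409 genes called (21.0% above 0, 22.9% below 0). The interaction was 0.79 ± 0.09 SE for SNHG8 (adjusted p = 1.66e-08), 0.71 ± 0.07 SE for GAS5 (adjusted p = 7.79e-10), 0.59 ± 0.15 SE for SNHG5 (adjusted p = 0.00165), 0.53 ± 0.08 SE for SNHG1 (adjusted p = 3.68e-06), 0.50 ± 0.08 SE for ZFAS1 (adjusted p = 1.29e-05) and 0.43 ± 0.11 SE for SNHG7 (adjusted p = 0.00180). All 6 passed in all 20 alternatives. The median of the 10 was 0.46, against 0.0056 over all genes. The interaction crosses the runs of library names, because olaparib was present in all libraries of 1 run and in none of the other. Olaparib and anything else about the runs that altered the change with VIC-1911 cannot be told apart in it.

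In GAS5 the log2 fold changes of the single drugs summed to -0.76, while COMBO gave -0.05. In SNHG8 they summed to -1.24 against -0.44, in SNHG1 to -0.73 against -0.21, in ZFAS1 to -0.66 against -0.16 and in SNHG5 to -0.65 against -0.07. SNHG7 summed to -0.25 and was at 0.18 with COMBO. These differences are the interaction written another way. SNHG3 was the exception among the hosts that olaparib lowered most: COMBO gave -0.49 and olaparib alone -0.50, and its interaction was 0.14 (95% interval -0.05 to 0.32, adjusted p = 0.239). SNHG6 had an interaction of -0.25 (adjusted p = 0.107), which passed without COMBO replicate 1 (-0.35, adjusted p = 0.0147; range 0.0147 to 0.412) and with no filter on counts (-0.27, adjusted p = 0.0384). SNHG3 and SNHG15 passed without COMBO replicate 2 (0.21, adjusted p = 0.0401, and 0.28, adjusted p = 0.0484), and SNHG15 without VIC replicate 2 as well (0.30, adjusted p = 0.0439), in ranges of 0.0401 to 0.639 and 0.0439 to 0.396.

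**Figure D3:**
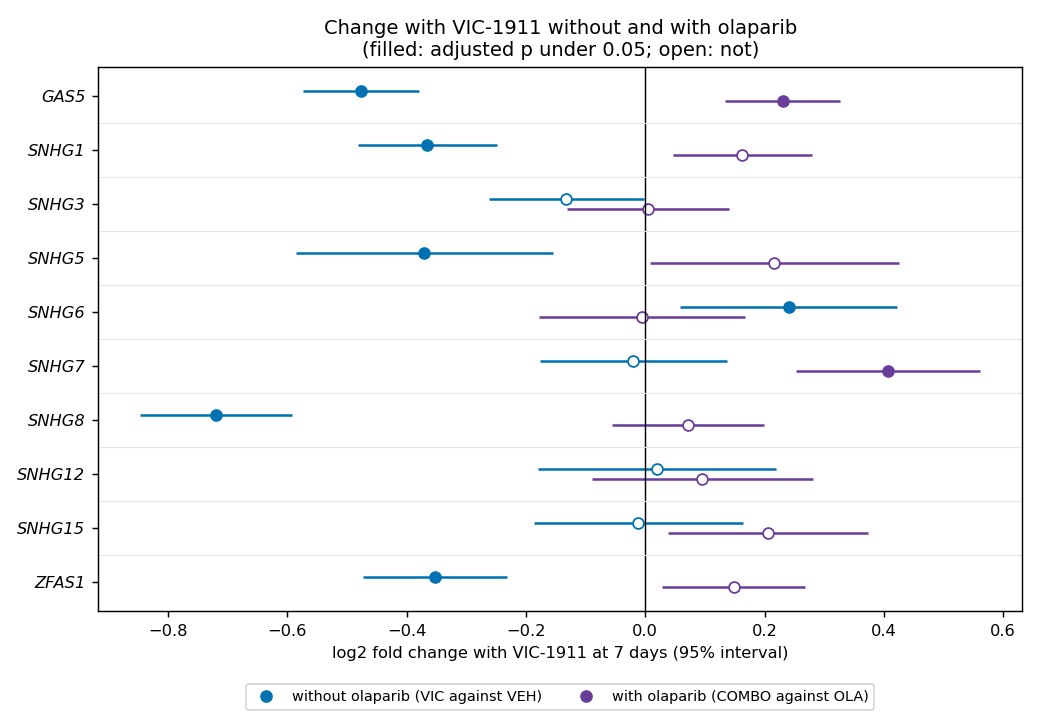
Log2 fold change with VIC-1911 at 7 days (horizontal axis, 95% interval) for each host gene, without olaparib (VIC against VEH) and with olaparib (COMBO against OLA); filled points passed an adjusted p of 0.05. GAS5, SNHG1, SNHG5, SNHG8 and ZFAS1 lie under 0 without olaparib and over 0 with it, GAS5 at -0.48 and 0.23.

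Against VIC-1911 alone, COMBO was higher in 8 hosts and lower in SNHG3. The 9 called (90.0%) stand beside 42.9% of all genes (20.7% higher, 22.2% lower). GAS5 was 1.34 times the VIC level (log2 0.42 ± 0.05 SE, adjusted p = 2.10e-08), with all 3 COMBO libraries over the VIC libraries. SNHG8 was 1.21 times (adjusted p = 0.000709), and SNHG3 fell to 0.780 (adjusted p = 4.15e-05). These 3 passed in all 15 alternatives. The other 6, SNHG1, SNHG5, SNHG7, SNHG12, SNHG15 and ZFAS1, were higher by between 0.16 and 0.30 on the log2 scale and were each lost in some alternative, SNHG5 with a value of 0.19 in place of 0.30 without COMBO replicate 1. Leaving out COMBO replicate 1 also ended the calls of SNHG1, SNHG7, SNHG12 and ZFAS1, and leaving out COMBO replicate 3 those of SNHG1, SNHG7, SNHG12 and SNHG15. The calls of SNHG1 and SNHG12 were also lost without VIC replicate 1 or 2, that of SNHG5 without 2 or 3, that of SNHG7 without 1 or 3 and that of SNHG15 without 3. With limma on FPKM values SNHG1, SNHG5, SNHG7, SNHG15 and ZFAS1 did not pass, with DESeq2 SNHG7 (adjusted p = 0.0723) and SNHG12 (0.0668) did not, and with no filter on counts SNHG1 (0.0643) and SNHG7 (0.0739) did not. The count went down to 4 without COMBO replicate 1 and to 5 without COMBO replicate 3, and this comparison crosses the runs of library names.

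Reads of some hosts cannot be told apart here from those of a neighbour with which they share bases. The strand setting of the counting is not given in the sources used here. Such a setting could separate only genes on opposite strands, and the strands of the neighbours were not compared here. SNHG3 (chr1:28505943-28510892) shares 4850 bases with RCC1, the exchange factor of the GTPase Ran. RCC1 rose in all 3 treatments of 7 days, and its log2 fold change was 0.77 with VIC at 7 days (adjusted p = 9.35e-13), 0.47 with olaparib and 0.28 with COMBO. GAS5 (chr1:173863901-173869045) shares 964 bases with ZBTB37, which had between 54 and 215 counts at 7 days and log2 fold changes of -0.31 with VIC (adjusted p = 0.0851) and -0.34 with COMBO (adjusted p = 0.0498). GAS5 itself had between 1136 and 5060 counts in these libraries, and GAS5-AS1, which shares 41 bases, at most 9. SNHG6 lies within the bounds of MCMDC2 (33 to 196 counts), which did not pass at 7 days with VIC (0.20), olaparib (-0.27) or COMBO (-0.12). SNHG12 shares 8 bases with TRNAU1AP, which fell by 0.54 with COMBO while SNHG12 rose. DIPK1B and LOC124900276, which overlap SNHG7, were not analysed here.

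The intron-borne snoRNAs are short and not polyadenylated, and a poly(A) library holds few of their reads. RefSeq places 36 of them within the 10 hosts, 32 are named in the count tables, and 20 passed the limit on low counts at 7 days. SNORD80, in GAS5, had the most reads (45 to 163 counts). It fell by 0.49 with VIC (adjusted p = 0.00349) and by 0.38 with COMBO (adjusted p = 0.0151), and had -0.20 with olaparib (adjusted p = 0.203). SNORD47, also in GAS5, fell by 0.92 with olaparib (adjusted p = 0.0412) and 1.06 with COMBO (adjusted p = 0.0179) on 4 to 26 counts. SNORA16A, in SNHG12, rose by 1.11 with COMBO (adjusted p = 0.0105) on 5 to 41 counts. No other of the 20 passed against vehicle at 7 days, and their low counts limit which changes could be detected. Whether such reads come from the free snoRNA or from unspliced host RNA was not tested.

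Other genes of the same pathway were described by counts, without a test of the lists. Of 13 further non-coding hosts tested, 6 fell and 4 rose with VIC at 7 days (76.9% called, beside 52.4% of all genes; median -0.24). SNHG32, named C6orf48 in the tables, fell by 0.42 (adjusted p = 1.52e-07), while SNHG9 rose by 0.78 (adjusted p = 6.42e-07) and DANCR by 0.30 (adjusted p = 8.70e-06). With COMBO 2 fell and 4 rose (46.2%, beside 56.6%; median 0.06). Their interaction was called above 0 in 8 and below 0 in 3 (84.6%, beside 44.0%; median 0.42), led by C6orf48 (0.57) and SNHG19 (0.65) above and DANCR (-0.38) below. Of the hosts that also code for protein, 17 of 44 rose and 3 fell with VIC at 7 days (45.5%, beside 52.4%; median 0.04), with CCT6A (0.57), NOP58 (0.66) and NCL (0.53) foremost.

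Ribosomal protein genes, which share the TOP tract, were spread around 0 with VIC and olaparib at 7 days and leaned higher with COMBO. Of 79, 17 rose and 9 fell with VIC at 7 days (32.9% called, under the 52.4% of all genes; median 0.02). With olaparib 21 rose and 20 fell (51.9%, near the 54.0% of all genes; median 0.04), and with COMBO 36 rose and 11 fell (59.5%, near 56.6%, with 45.6% higher beside 28.6%; median 0.10). RPL10, also a snoRNA host, fell in all 3 (by 0.39, 0.55 and 0.73 on the log2 scale), while RPL11 (0.45) and RPL3 (0.36) rose with COMBO. Of the 79, 56 were above 0 with COMBO against vehicle. In COMBO against OLA 73 were above 0, with 11 called higher and 1 lower (15.2%, beside 11.5% of all genes). The interaction was called above 0 in 17 of the 79 and below 0 in 4 (26.6%, beside 44.0%; median 0.06).

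Of 20 mTOR pathway components, 8 rose and 7 fell with VIC at 7 days (75.0%, beside 52.4%). The genes that fell most were DDIT4 (-1.97) and SESN2 (-1.88), which restrain mTORC1 under stress, and EIF4EBP1 (-0.91), which encodes the translation repressor 4E-BP1. Those that rose most were SESN3 (0.79) and SESN1 (0.56), relatives of SESN2, and EIF4E (0.60). LARP1, which binds TOP tracts, was at -0.07 (adjusted p = 0.179). DDIT4 stood at 370 ± 18.7 FPKM with vehicle and at 97.4 ± 1.81 with VIC, 90.8 ± 2.64 with olaparib and 95.5 ± 5.84 with COMBO. DDIT4 was thus under vehicle in all 3 treatments, as were SNHG8 and SNHG1, while GAS5 was under it in 2. The interaction of the mTOR list was called above 0 in 6 of 20 and below 0 in 10 (80.0%, beside 44.0% of all genes). DDIT4 (2.06), SESN2 (2.04) and EIF4EBP1 (0.76) were above 0, as GAS5 was, and SESN3 (-1.05) was below. LARP1 was at 0.01 (adjusted p = 0.877). A link between these genes and the hosts was not tested.

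Genes for the proteins of snoRNPs, the particles that snoRNAs form, were mostly higher. Of 19, 14 rose and none fell with VIC at 7 days (73.7% higher, beside 26.6% of all genes; median 0.31), and 14 and 15 rose with olaparib and COMBO (73.7% and 78.9%, beside 28.1% and 28.6%), with 1 lower in each. NOP58 went from 32.2 ± 1.26 FPKM with vehicle to 52.8 ± 2.86 with VIC (log2 fold change 0.66, adjusted p = 5.29e-12), and fibrillarin (FBL) from 117.5 ± 8.01 to 186 ± 7.22 (0.61, adjusted p = 1.70e-11). The interaction was called below 0 in 12 of 19 and above 0 in none (63.2% below, beside 22.9%; median -0.33). Of 18 genes of RNA polymerase I and ribosomal RNA processing, 12 rose and 1 fell with VIC (66.7% higher, beside 26.6%; median 0.26). Of 14 NMD factors, 4 rose and none fell with VIC at 7 days, and these 28.6% were near the 26.6% of all genes called higher. They were EIF4A3 (log2 fold change 0.31), UPF2 (0.26), RBM8A (0.21) and UPF1, the central helicase of the pathway (0.14, adjusted p = 0.00513). With olaparib 6 NMD factors rose and 1 fell, and with COMBO 6 rose and 2 fell (42.9% higher in each, beside 28.1% and 28.6% of all genes). Their interaction was called below 0 in 5 and above 0 in 1 (35.7% below, beside 22.9%).

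**Figure D4:**
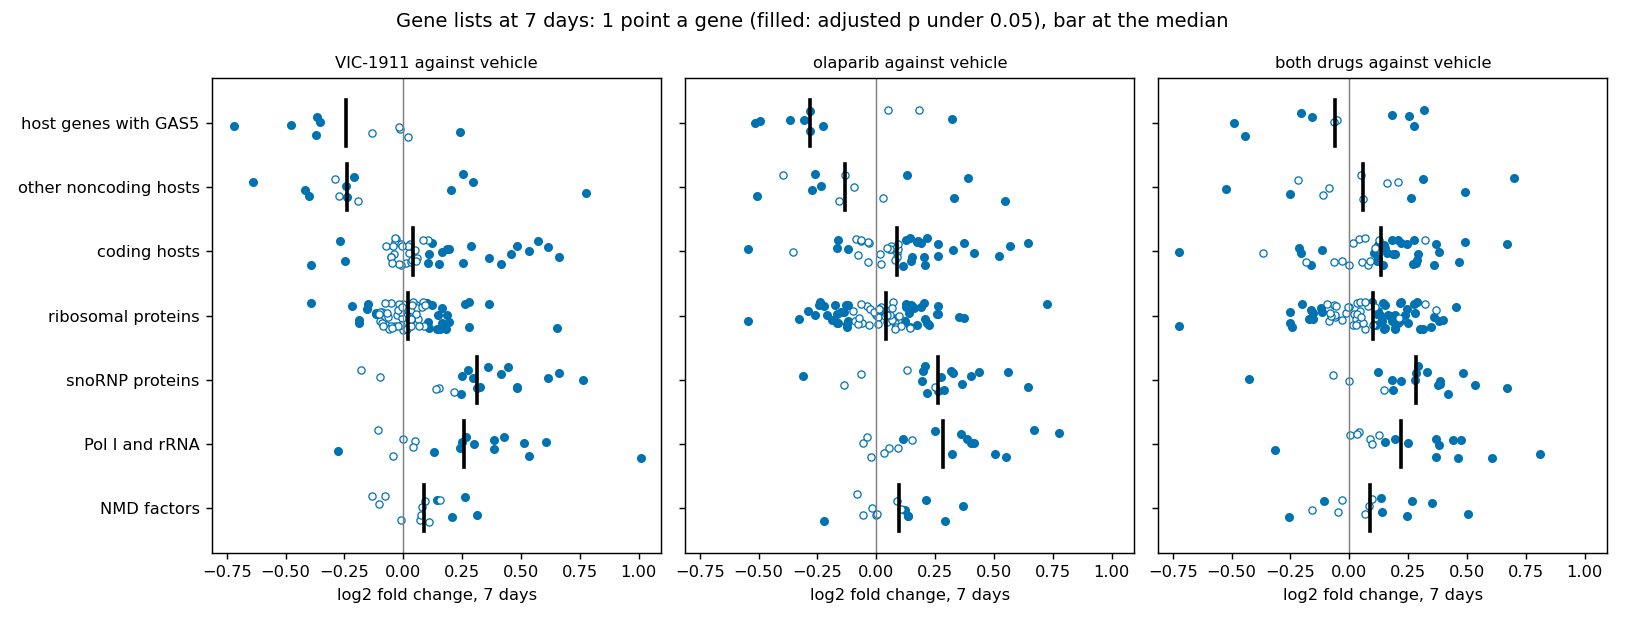
Log2 fold change at 7 days (horizontal axis) of every tested gene in 7 lists, with 1 panel for each drug treatment against vehicle; each point is a gene, filled where its adjusted p was under 0.05, and the bar is the median of the list. With VIC the medians are -0.24 for the 10 hosts with GAS5, -0.24 for 13 other non-coding hosts, 0.02 for ribosomal proteins and 0.31 for snoRNP proteins.

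The genes whose log2 CPM values (counts scaled by library size) were most like those of GAS5 over the 12 libraries of 7 days were RSRP1 (Pearson r = 0.973), IGBP1 (0.964), MACROD1 (0.964), VPS28 (0.963) and DNAJB2 (0.962), among 10414 genes with a mean of at least 100 counts. The points share libraries and the 4 group means, so these are descriptions without a test. Of the hosts, ZFAS1 ranked 265 (0.849), SNHG1 293 (0.839), SNHG8 368 (0.821) and SNHG5 423 (0.806). SNHG7 (0.475), SNHG15 (0.321), SNHG12 (0.307), SNHG3 (0.0145) and SNHG6 (-0.2655) were less like GAS5. The median was 0.195 over 77 ribosomal protein genes and -0.056 over all genes.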

How the data were processed

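Per the methods and labels, the authors removed adaptors with Trimmomatic, aligned to GRCh38 (hg38) and counted per gene with STAR (2.6.0 in the submitters' processing notes), and deposited raw counts and FPKM values for each time point. The strand setting of the counting is not given in the sources used here. All columns of the 4 tables were used. The members and lists were chosen with earlier results of these data known.

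The count tables were tested with the quasi-likelihood method of edgeR 4.0.16 (TMM scaling, glmQLFit and glmQLFTest, under R 4.3.3). A gene entered a fit if 3 or more libraries had 10 or more of its counts, which left 12241 genes in 6 libraries at 2 days, 14409 in 12 at 7 days and 13832 in a joint fit for the difference between times. Two-sided p-values received a Benjamini-Hochberg adjustment over every gene of a fit, and 0.05 was the limit for a call. FPKM values were used as deposited for levels. Alternatives were DESeq2 1.42.0, upper-quartile or no scaling, no filter on counts, a limit of 1 on the mean FPKM, limma 3.58.1 on log2(FPKM + 0.1) and log2(FPKM + 1), the replicate number as a block, the compared groups alone and each library left out. On simulated counts edgeR recovered 95 of 100 genes changed by 0.5 on the log2 scale among 12129 genes at the depth of 2 days, and 99 of 100 among 14248 at 7 days. At each depth 7 unchanged genes were called. The changed genes had a mean of at least 100 counts, and all genes were given the same spread. The figures thus do not cover smaller changes or hosts with fewer reads, such as SNHG12 at 2 days (31 to 67 counts). Named genes were all 10 hosts, up to 3 genes with the smallest adjusted p of each other list, DDIT4, SESN2, EIF4EBP1 and LARP1. The 5 genes most like GAS5 and genes overlapping a host or lying in it were named as well. UPF1, as the 4th of 4 called, and SESN1, SESN3 and EIF4E with VIC at 7 days were added after their values were seen. Transcript starts came from GENCODE version 44, gene bounds and snoRNA positions from RefSeq (GRCh38.p14). A marker of the immune list, and the sum of that list, are not reported here.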

Additional observations from a re-analysis of the deposited data

Results flagged for a closer look

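The 13 results listed here are differences of the VIC-1911 change between settings that passed a test of the difference itself; the causes were not tested. Between cells without and with olaparib at 7 days, the difference on the log2 scale was 0.79 for SNHG8, 0.71 for GAS5, 0.59 for SNHG5, 0.53 for SNHG1, 0.50 for ZFAS1 and 0.43 for SNHG7. Between 7 and 2 days it was -0.77 for SNHG8, -0.62 for SNHG5, -0.53 for GAS5, -0.50 for ZFAS1, -0.27 for SNHG1, 0.25 for SNHG3 and 0.42 for SNHG6. Both sets use the same 3 VIC and 3 VEH libraries of 7 days, so they are not independent of each other. The first set also crosses the runs of library names, so olaparib and whatever else separated the runs cannot be told apart in it. Each library was left out in turn, but no separate search for deviating libraries was made in groups of 3.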

How the results depend on the processing

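Of 47 called host results, 29 kept their direction and their call in every alternative, and of their 769 alternative values 689 kept both and 80 lost the call with the direction unchanged. Of 33 results that were not called, 22 of 521 alternative values passed and 48 changed sign. The causes were not tested. The count of called hosts with VIC at 2 days was 2 with limma on either log2(FPKM + 0.1) or log2(FPKM + 1), and 4 for COMBO against VIC with both. With each library left out it was 1 to 2 for VIC at 2 days, 5 to 7 for COMBO against VEH, 2 to 6 for COMBO against OLA and 4 to 9 for COMBO against VIC. The shares of all genes called under the alternatives are not given here, so these counts stand without a background.

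The log2 changes that turned sign were as follows. SNHG7 with VIC was 0.0062 at 2 days with no filter on counts, and at 7 days 0.0159 and 0.0146 with limma and 0.0029 without scaling. SNHG15 with VIC at 7 days was 0.0447 and 0.0435 with limma and 0.0112 without scaling, and SNHG12 was -0.0004 with upper-quartile scaling. For COMBO against OLA, SNHG3 was -0.0216 and -0.0204 with limma, -0.0088 without the filter and -0.0119 with the replicate block, and SNHG6 was 0.0023 with the FPKM limit, 0.0008 without scaling and 0.0094 with upper-quartile scaling. The difference between times was 0.0352 and 0.0312 with limma and 0.0240 without scaling for SNHG7, and 0.0090 and 0.0097 with limma for SNHG12.

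With each library left out, the values ran from -0.0040 to 0.0763 for GAS5, -0.0963 to 0.0409 for SNHG7 and -0.0599 to 0.0022 for SNHG15 with VIC at 2 days, and from -0.0969 to 0.0281 for SNHG7, -0.0666 to 0.0524 for SNHG12 and -0.0990 to 0.0431 for SNHG15 at 7 days. They ran from -0.0276 to 0.1271 for SNHG15 with olaparib and from -0.1938 to 0.0412 for SNHG5 with COMBO. Against OLA, COMBO ran from -0.0408 to 0.0788 for SNHG3 and -0.1200 to 0.0925 for SNHG6, and against VIC from -0.0342 to 0.1746 for SNHG6. The difference between times ran from -0.0772 to 0.0627 for SNHG7 and -0.0482 to 0.0854 for SNHG15.

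Libraries with the same replicate number did not deviate together (correlations of deviations from -0.00935 to 0.0413 at 2 days and from -0.0320 to 0.0887 at 7 days), so the numbers were not taken to pair them. With the replicate block the called hosts were 1 for VIC at 2 days, 7 for VIC at 7 days, 8 for olaparib, 8 for COMBO, 2 for COMBO against OLA, 9 for COMBO against VIC, 7 for the interaction and 7 for the difference between times. The share of all genes called with the block is not given here. The interaction of SNHG6 passed with the block (-0.27, adjusted p = 0.0272; range over 20 alternatives 0.0147 to 0.412). SNHG12, with the fewest reads of the 10 at 2 days (31 to 67 counts), had the widest interval there (-0.22 to 0.48).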

Other observations

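At 2 days, SNHG3 was the 1 host called, and 14.7% of all genes were (7.50% higher, 7.19% lower). Of 19 snoRNP protein genes, NOP58 (log2 fold change 0.21, adjusted p = 0.00959) and DKC1 (0.17, adjusted p = 0.0243), the pseudouridine synthase of H/ACA particles, rose with VIC-1911 and none fell, which at 10.5% called is near the share over all genes, and the median was 0.12 against -0.0034 over all genes. Of 18 genes of RNA polymerase I and ribosomal RNA processing, 4 rose and none fell (22.2%), with TWISTNB at 0.34, POLR1B at 0.22 and NCL at 0.14. DDIT4 had already fallen by 0.96, EIF4EBP1 by 0.39 and SESN2 by 0.24, while SESN1 rose by 0.61. Of 13 further non-coding hosts, SNHG19 alone was called (7.69%), and fell by 0.29 (adjusted p = 0.0184).

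Of 20 other TOP mRNAs, 3 rose and 7 fell with VIC at 7 days, beside 26.6% of all genes called higher and 25.8% lower. With olaparib 7 rose and 2 fell, beside 28.1% of all genes called higher and 25.9% lower. With COMBO 9 rose and 2 fell, beside 28.6% higher and 28.0% lower. In either direction, the share of these mRNAs called was under the 54.0% of all genes with olaparib and near the 56.6% with COMBO. Among these 20 genes VIM, which encodes vimentin, rose by 0.78 with olaparib and by 1.31 with COMBO at 7 days. NAP1L1, a histone chaperone gene, fell by 0.29 with olaparib and by 0.64 with COMBO. In the comparison of COMBO with VIC, 8 of 19 snoRNP protein genes were lower and 1 higher (42.1% lower, beside 22.2% of all genes). The lower ones included FBL (-0.23), SHQ1 (-0.39) and PIH1D1 (-0.33). Of the 10 hosts 8 were higher, beside 20.7% of all genes, and most of these calls were lost in some alternative. Also higher were 7 of 13 further non-coding hosts (1 lower), 11 of the 20 other TOP mRNAs (2 lower) and 24 of 79 ribosomal protein genes (4 lower).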
